A study of Mus musculus with 64 samples.

Results

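The hearts compared here were taken at zeitgeber time 15 (ZT15, 15 h after lights on and 3 h into the dark phase) from mice that lack BMAL1 in cardiomyocytes and from wild type littermates. The 4 arrays labelled knockout and the 4 labelled wild type at this time were taken by their labels, 8 of the 64 arrays in the series, and 9137 features were tested on them (8449 genes with a symbol and 688 probes without one, counted together as genes below). The whole study measured transcripts on Illumina MouseRef-8 v2 bead arrays in both genotypes at 8 times of day, every 3 h, with 4 arrays per genotype and time. All mice were male, on the C57Bl/6J background, fed standard chow freely and kept in 12 h of light and 12 h of darkness. The knockout mice are those the submitters call CBK, and the series title names the deletion as specific to cardiomyocytes. The labels give neither the promoter that drives the deletion, nor the age of the mice, nor whether each numbered sample came from its own animal, so p-values measure the spread between samples, part of which may be technical. Whole hearts were used, so fewer cells of a type and less RNA per cell cannot be told apart, and cells other than cardiomyocytes keep the gene.

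BMAL1, encoded by Arntl, pairs with CLOCK to bind E-box sequences and drive the genes of the circadian clock and its outputs. Among these genes are the Per and Cry repressors, the REV-ERB receptors Nr1d1 and Nr1d2, and the transcription factor Dbp. The REV-ERB receptors repress genes with RORE sequences, Arntl and Nfil3 among them, and ROR receptors activate through the same sequence.

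At ZT15, between 9554 and 10594 probes were detected per array and the raw signal had a median of 119.4 to 180.3 intensity units. Each of the 8 arrays had a residual spread 0.81 to 1.25 times that of the median array of the series. Precision is limited by the number of arrays. The mean level of 9 measured cardiomyocyte markers lay between 13.36 and 13.62 on the log2 scale on all 8 arrays. No other tissue was set beside them, so this is no check of the heart label. Of these 9, 0 were called different between the genotypes, which in so short a list shows no difference from the 6.15% of all genes. Levels and differences below are log2 intensities unless a fold is named. A probe adds its own binding strength to its level, so levels are compared between arrays and not between genes.

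Knockout and wild type hearts differed at ZT15 in 562 of 9137 genes (6.15%, adjusted p under 0.05, limma). Higher in knockout were 314 genes (3.44%), of which 52 passed 2-fold and 185 passed 1.5-fold. Lower were 248 genes (2.71%), of which 47 passed 2-fold and 166 passed 1.5-fold. The median size of a called difference was 0.67, and the median over all genes was -0.004. With each array's median scaled in place of quantile normalization, 311 genes were called, 208 higher and 103 lower, so that the higher ones made up 66.9% of calls in place of 55.9%. The knockout arrays did not overlap the wild type arrays in 509 of the 562 called genes. They did not overlap in 1165 genes over the whole table (12.8%).

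The targeted gene was higher, not lower, on the knockout arrays at this time. Arntl read 4.99, 5.01, 5.47 and 5.23 in wild type and 6.70, 6.80, 6.11 and 6.57 in knockout. All 4 knockout arrays lay above all 4 wild type arrays, and the probe was detected on 4 knockout arrays and on 0 wild type arrays. The difference was 1.37 ± 0.20 (SE, n = 4 per group, limma adjusted p = 6.8e-07), and against the background floor of the wild type arrays the knockout level was at least 1.92-fold higher. That bound sets the knockout mean against the lowest signal that passed detection on each wild type array. Where the probe lies with respect to the deleted exons is not known here, so the signal is no check of the deletion. Wild type Arntl was near background from ZT9 to ZT15, at means of 5.50, 5.35 and 5.18 with 2, 1 and 0 of 4 arrays detected, so the order of these times is not set. At ZT3 wild type read 8.11 ± 0.20 (SD, n = 4) and knockout 7.33 ± 0.18. Arntl was also called higher in knockout at ZT12 (0.80, adjusted p = 0.0045), gave 0.52 at ZT9 (adjusted p = 0.084), and was called lower at ZT0 (-0.82) and ZT3 (-0.78). Its mean of -0.12 over the other 7 times therefore averages differences of both signs.

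The comparison that asks what was particular to ZT15 sets its knockout effect against the mean effect at the other 7 times, which share no array with it. Of 9137 genes, 8 passed that test (0.0876%, limma adjusted p under 0.05), 6 of them shifted up and 2 down at ZT15, while 458 had an unadjusted p under 0.05. The 6 were Arntl, the transporter gene Slc41a3, the cell cycle inhibitor gene Cdkn1a, the metalloprotease gene Adam19, Tnfaip3 and Cep41. The 2 were Tcap, which encodes the Z-disc protein telethonin, and Dnajc17. Only Arntl and Slc41a3 kept this call under every alternative processing tried.

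**Figure D1:**
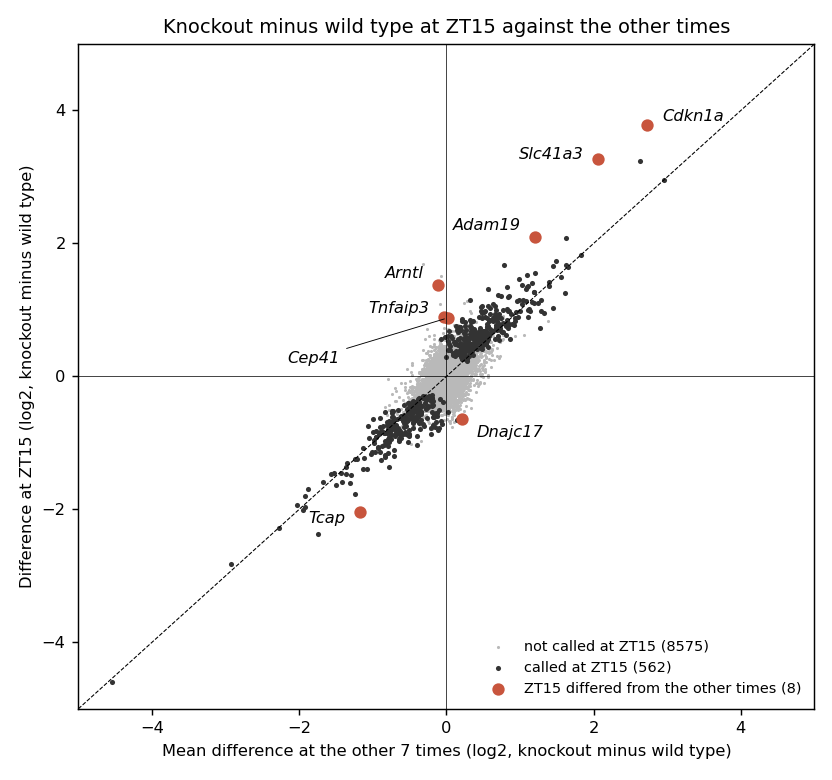
Each point is 1 of the 9137 genes, with its knockout minus wild type difference at ZT15 on the vertical axis and the mean difference of the other 7 times on the horizontal axis (log2). Of the 562 called genes, 447 were further from 0 at ZT15 than in the mean of the other times. The calls were made on the ZT15 arrays, which favours larger sizes there. The 8 large points are the genes whose ZT15 difference passed the test against the other times.

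Promoter windows are shown for the 3 genes whose ZT15 excess had the smallest adjusted p, with the E-box or RORE letters they hold. Whether these motifs bear on the excess was not tested. They come from RefSeq on build GRCm38.p6 and run from 250 bases before to 50 bases after an annotated start site. In the Slc41a3 window (chr6:90618996-90619295, plus strand) and in 1 of 3 Adam19 windows (chr11:46054252-46054551, plus strand), the capitals mark the E-box CACGTG, whose first base lies at -213 and -130 from the start site. In 1 of 2 overlapping Arntl windows (chr7:113207215-113207514, plus strand), they mark the letters TNGGTCA, taken as a loose RORE core, at -200 and -181. N allows any base, here T and C, and the bases around the core were not searched. These matches need not be RORE sites, and sites with other letters are not marked.
Slc41a3: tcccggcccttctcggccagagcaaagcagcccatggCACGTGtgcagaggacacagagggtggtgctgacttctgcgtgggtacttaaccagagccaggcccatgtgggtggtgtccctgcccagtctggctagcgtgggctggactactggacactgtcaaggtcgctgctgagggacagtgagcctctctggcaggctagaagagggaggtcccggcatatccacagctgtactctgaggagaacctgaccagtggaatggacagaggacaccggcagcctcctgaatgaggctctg
Adam19: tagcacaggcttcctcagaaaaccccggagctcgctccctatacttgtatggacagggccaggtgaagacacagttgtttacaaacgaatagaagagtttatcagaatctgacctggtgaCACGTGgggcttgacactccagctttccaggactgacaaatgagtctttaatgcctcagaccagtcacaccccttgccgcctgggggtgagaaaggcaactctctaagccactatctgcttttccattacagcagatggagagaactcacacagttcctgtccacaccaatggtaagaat
Arntl: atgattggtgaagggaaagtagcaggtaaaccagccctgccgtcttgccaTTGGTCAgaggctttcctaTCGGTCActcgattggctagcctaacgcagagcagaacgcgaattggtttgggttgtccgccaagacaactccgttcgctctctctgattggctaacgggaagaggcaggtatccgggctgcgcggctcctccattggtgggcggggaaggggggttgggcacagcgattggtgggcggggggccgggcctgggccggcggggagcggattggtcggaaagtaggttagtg
Both motifs were searched on both strands. The E-box stood in 7.15% of 32851 windows of all genes and in 9.99% of windows of tested genes, and the RORE core in 11.0% and 9.97%. Counted per gene, 12.1% of 6893 tested genes with a window had an E-box in at least 1 of them and 12.0% an RORE core. Among the 8 genes that passed against the other times, an E-box was also found in 1 of 2 windows of Tnfaip3, and an RORE core in a window of Dnajc17. Of the 12 largest rises at ZT15, 2 had a window with an E-box (Adam19 and Slc41a3), and of the 9 largest falls with a window, 0 had one. A match describes the letters of the window and does not show that a factor binds there.

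Slc41a3, whose product belongs to a family of magnesium transporters, rose 9.64-fold at ZT15. Wild type arrays read 7.84, 7.74, 7.74 and 7.83, and knockout arrays 11.26, 11.07, 10.99 and 10.91. The groups were far apart, with a difference of 3.27 ± 0.17 (SE, n = 4 per group, limma adjusted p = 7.2e-22). The gene was called higher at all of the other 7 times too, with differences from 1.33 at ZT0 to 2.73 at ZT12 and a mean of 2.06. The ZT15 difference exceeded that mean by 1.21 ± 0.18 (SE, limma adjusted p = 8.2e-05). Knockout means stayed between 10.89 and 11.26 through the day, whereas wild type fell from 9.66 at ZT0 to 7.79 at ZT15, its lowest point. Another Slc41a3 probe gave a ZT15 excess of 1.30 (limma adjusted p = 4e-04), and a further one gave 0.80 (adjusted p = 0.94).

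Adam19, which encodes a membrane metalloprotease that sheds signalling proteins, rose 4.27-fold. Wild type arrays read 7.25, 7.68, 7.73 and 7.45, and knockout arrays 9.46, 9.58, 9.65 and 9.80. Each knockout array exceeded each wild type array, and the difference was 2.09 ± 0.15 (SE, n = 4 per group, limma adjusted p = 3.7e-16). It was larger than the mean of 1.20 at the other times by 0.89 ± 0.16 (SE, limma adjusted p = 0.0024). ZT12 gave a like difference (2.15) and ZT0 the smallest (0.28, adjusted p = 0.23). The wild type level was low from ZT9 to ZT15 (7.77, 7.65 and 7.53) against 9.57 at ZT0. Without wild type replicate 180 the adjusted p against the other times was 0.0505, and with median scaling it was 0.0885.

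Cdkn1a, the gene of the kinase inhibitor p21 that halts the cell cycle, showed the largest rise of all called genes, 13.8-fold. Its 4 wild type arrays read 6.89, 7.08, 6.95 and 7.47, and its knockout arrays 10.86, 10.90, 10.86 and 10.90. The knockout arrays were nearly equal and more than 3 log2 units above wild type, with a difference of 3.79 ± 0.20 (SE, n = 4 per group, limma adjusted p = 1.2e-21). The gene was called higher at all of the other 7 times, with 3.27 at ZT9, 3.39 at ZT12 and 3.33 at ZT18 the nearest to ZT15. Their mean over 7 times was 2.73, and ZT15 exceeded it by 1.06 ± 0.22 (SE, limma adjusted p = 0.021). In this gene the knockout level peaked at ZT15 (10.88) and the wild type level was lowest at ZT9 (6.71). The call against the other times was lost on leaving out 7 of the 8 single arrays, with adjusted p up to 0.15, and 2 further probes of the gene gave an excess of 0.98 (adjusted p = 0.36) and 0.64 (adjusted p = 0.94).

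Tcap, whose product anchors titin at the Z-disc of the sarcomere, fell 4.11-fold at ZT15. Wild type arrays read 13.35, 13.25, 13.13 and 13.21, and knockout arrays 11.26, 10.99, 11.24 and 11.29. No knockout array came near a wild type array (difference -2.04 ± 0.18, SE, n = 4 per group, limma adjusted p = 5.8e-13). Over the other times the mean was -1.17, with -0.34 at ZT0 and -1.65 at ZT9 as its ends, and ZT15 lay below the mean by -0.87 ± 0.19 (SE, limma adjusted p = 0.038). Wild type Tcap was high from ZT9 to ZT15 (13.35, 13.04 and 13.24) and lower at ZT0 (11.58), while knockout means kept between 11.15 and 11.70. Leaving out any 1 of the 8 arrays took away the call against the other times, with adjusted p up to 0.23.

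The last 3 genes sat at the edge of detection. Tnfaip3, which encodes A20, a restraint on NF-kappaB signalling, read 4.68, 4.85, 4.61 and 4.89 in wild type and 6.01, 5.83, 5.48 and 5.30 in knockout. It was detected on 0 wild type and 3 knockout arrays, and the knockout level was at least 1.03-fold higher (difference 0.90 ± 0.18, SE, n = 4 per group, limma adjusted p = 0.00039). At no other time did Tnfaip3 pass the test. Cep41, which encodes a centrosomal protein of cilia, read 4.73, 5.17, 5.13 and 5.25 in wild type and 6.27, 5.66, 6.25 and 5.63 in knockout, at least 1.27-fold higher. It was detected on 0 and 3 arrays, and its only other call was at ZT18 (0.58, adjusted p = 0.038). Dnajc17, of the J-domain family of HSP70 partners, read 5.69, 5.50, 5.47 and 5.51 in wild type and 4.78, 4.96, 4.92 and 4.97 in knockout, at least 1.04-fold lower. It was the 1 gene called at ZT15 with the opposite call in the mean of the other times, where it was higher by 0.22 (limma adjusted p = 0.007). With the comparison restricted to ZT 3, 9, 15 and 21, whose samples share a run of numbers, Arntl, Slc41a3, Adam19, Cdkn1a, Tcap and Dnajc17 kept the call, while Tnfaip3 (adjusted p = 0.565) and Cep41 (adjusted p = 0.757) did not.

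**Figure D2:**
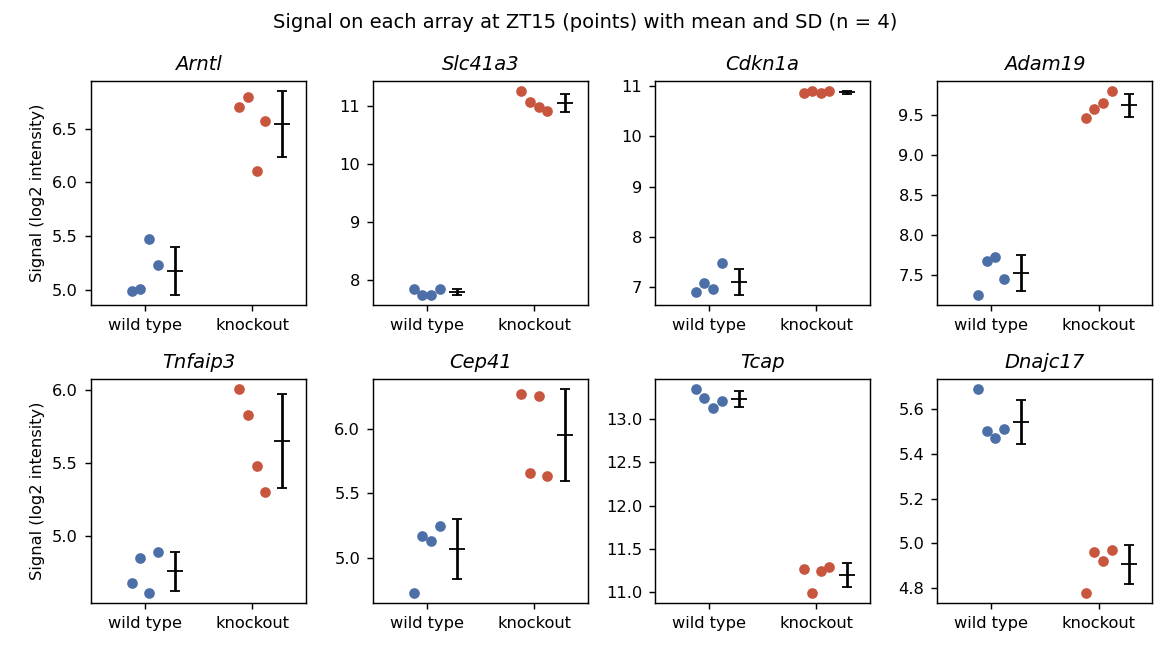
Log2 signal of the 8 genes on each of the 8 ZT15 arrays (points) with the mean and SD of each genotype (n = 4). Vertical axes differ between panels and do not start at 0, and in all 8 genes the genotypes do not overlap.

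**Figure D3:**
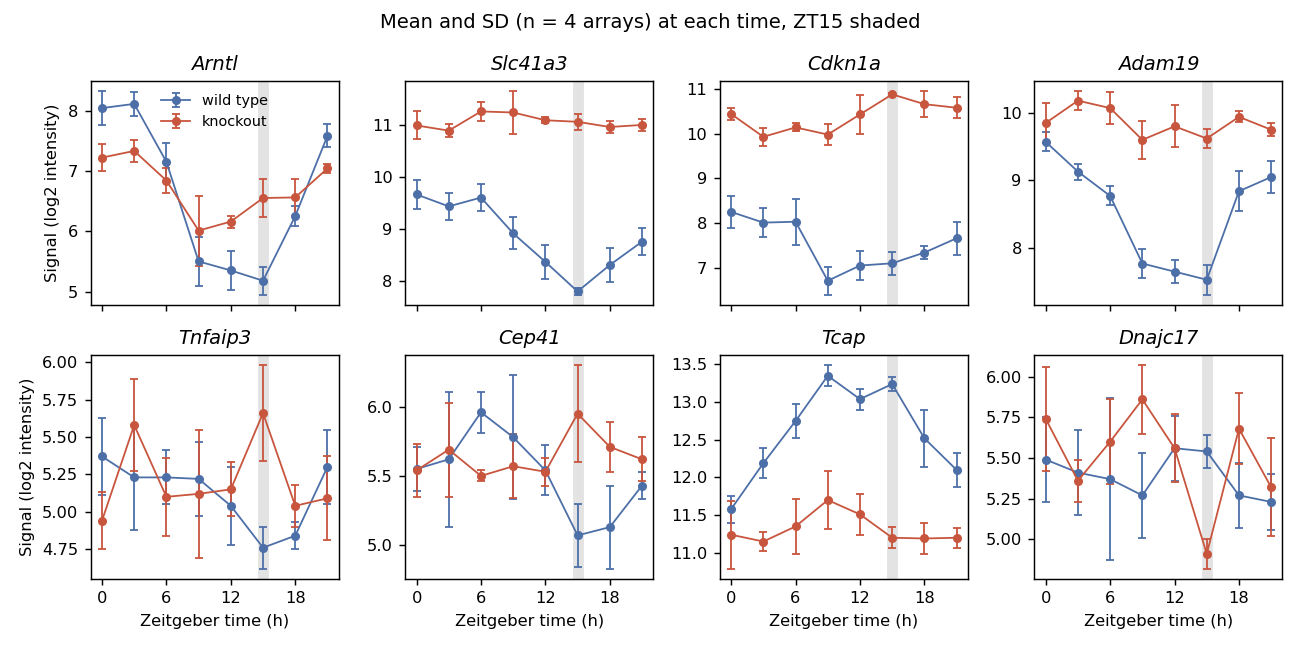
Mean log2 signal with SD (n = 4 arrays) of the same 8 genes in wild type and knockout hearts at the 8 times, with ZT15 shaded. In Slc41a3 the wild type mean is lowest at ZT15 (7.79), and in Cdkn1a the knockout mean is highest there (10.88).

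Against ZT3, 12 h away on the clock, 4 genes had a different knockout effect at ZT15 (0.0438% of 9137, limma adjusted p under 0.05), with 286 at an unadjusted p under 0.05. Arntl differed by 2.15 ± 0.28 (SE, adjusted p = 2.1e-06), since it was lower in knockout at ZT3 by -0.78 and higher at ZT15. Cdkn1a differed by 1.87 ± 0.28, Slc41a3 by 1.81 ± 0.24 and Adam19 by 1.04 ± 0.21 (SE). These 4 genes also make up a part of the 8 that passed against the mean of all other times.

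For most called genes the effect at ZT15 was one seen at other times as well. In the mean of the other 7 times 3255 genes were called (35.6%), a mean that rests on 7 times as many arrays. Of the 562 genes called at ZT15, 520 were called there in the same direction (92.5% of the 562 and 16% of the 3255). The sign was the same in 554 of the 562, and 133 genes were called at all 8 times. Over the 520 the median ratio of the ZT15 difference to that mean was 1.25, but the calls were made on the ZT15 arrays, which favours larger sizes there. Of the same 562 genes, 87 were called at no other single time, but only Tnfaip3 among these 87 passed the test of the difference. The counts of calls at single times ran from 387 at ZT6 to 934 at ZT0, so that 562 at ZT15 lay in the middle.

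The core clock list held 15 tested genes, of which 2 were higher (Arntl and Clock) and 3 lower (Nr1d2, Ciart and Per3), 33.3% called against 6.15% of all genes. Their median difference was -0.25. Nr1d2, which encodes REV-ERB beta, read 9.45, 9.62, 9.85 and 10.07 in wild type and 7.61, 8.18, 7.69 and 8.31 in knockout. The groups did not overlap, and it fell 3.48-fold (difference -1.80 ± 0.20, SE, limma adjusted p = 1.7e-09). Ciart, which encodes a repressor of CLOCK and BMAL1, read 7.16, 6.23, 6.43 and 6.27 in wild type and 5.18, 5.57, 5.53 and 5.51 in knockout. It fell 2.10-fold (limma adjusted p = 0.001) without overlap, far less than its fall of -2.83 at ZT9, where wild type Ciart peaked. Per3 fell by 0.63 (adjusted p = 0.015), and it missed the threshold with the deposited processed values (adjusted p = 0.14). Clock itself read between 9.04 and 9.43 in wild type and between 10.12 and 10.31 in knockout (2.03-fold higher, adjusted p = 1.2e-06), though its other probe gave 0.27 (adjusted p = 0.52).

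The remaining 10 core clock genes did not pass at ZT15. The period genes Per1 (-0.38 ± 0.35, SE) and Per2 (-0.04 ± 0.26) had adjusted p of 0.67 and 0.97. Per2 was nearly identical on the wild type arrays, at 9.50 to 9.53, and spanned 9.29 to 9.62 in knockout. Nr1d1, which encodes REV-ERB alpha, differed by -0.20 ± 0.21 (adjusted p = 0.72) and the E-box repressor gene Bhlhe40 by -0.26 ± 0.21 (adjusted p = 0.59). Rora, an activator at RORE sequences, gave -0.46 ± 0.21 (adjusted p = 0.23) although its groups did not overlap, and Cry2 gave 0.24 ± 0.26 (adjusted p = 0.73). None of the 10 passed the test against the other times.

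Clock output genes were the most often called of the lists with more than 4 tested members: 14 of 19 (73.7%, against 6.15% of all genes), 6 higher and 8 lower. The list was chosen with earlier results of these hearts known, so its count is not independent evidence of a direction. Dbp, which encodes a D-box transcription factor, read 12.12, 11.87, 12.01 and 11.74 in wild type and 9.88, 10.22, 10.57 and 9.98 in knockout. It fell 3.42-fold with no overlap (difference -1.77 ± 0.18, SE, limma adjusted p = 7.5e-11). Dbp fell about as far at ZT9 (-1.73) and ZT18 (-1.67), and its ZT15 difference did not pass against the other times (limma adjusted p = 0.86). The related factor gene Tef fell 1.83-fold, and Nfil3, which encodes the D-box repressor E4BP4, rose 2.55-fold (8.58 to 8.98 in wild type, 10.04 to 10.29 in knockout, adjusted p = 8.4e-12). Nampt, whose product limits the rate of NAD salvage, read 9.71, 9.88, 9.76 and 9.70 in wild type and 8.03, 8.04, 7.62 and 7.62 in knockout. It fell 3.83-fold (adjusted p = 6e-09) with the groups far apart. Also lower were Usp2 (1.86-fold), Gpcpd1 (2.34-fold), Coq10b (2.19-fold) and Herpud1 (1.72-fold), and also higher were Leo1 (2.09-fold) and Ppp1r3c (1.48-fold). Klf9, Klf10, Klf15, Tsc22d3 and Pdzrn3 did not pass, with differences from -0.65 in Klf15 to -0.02 in Klf9.

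**Figure D4:**
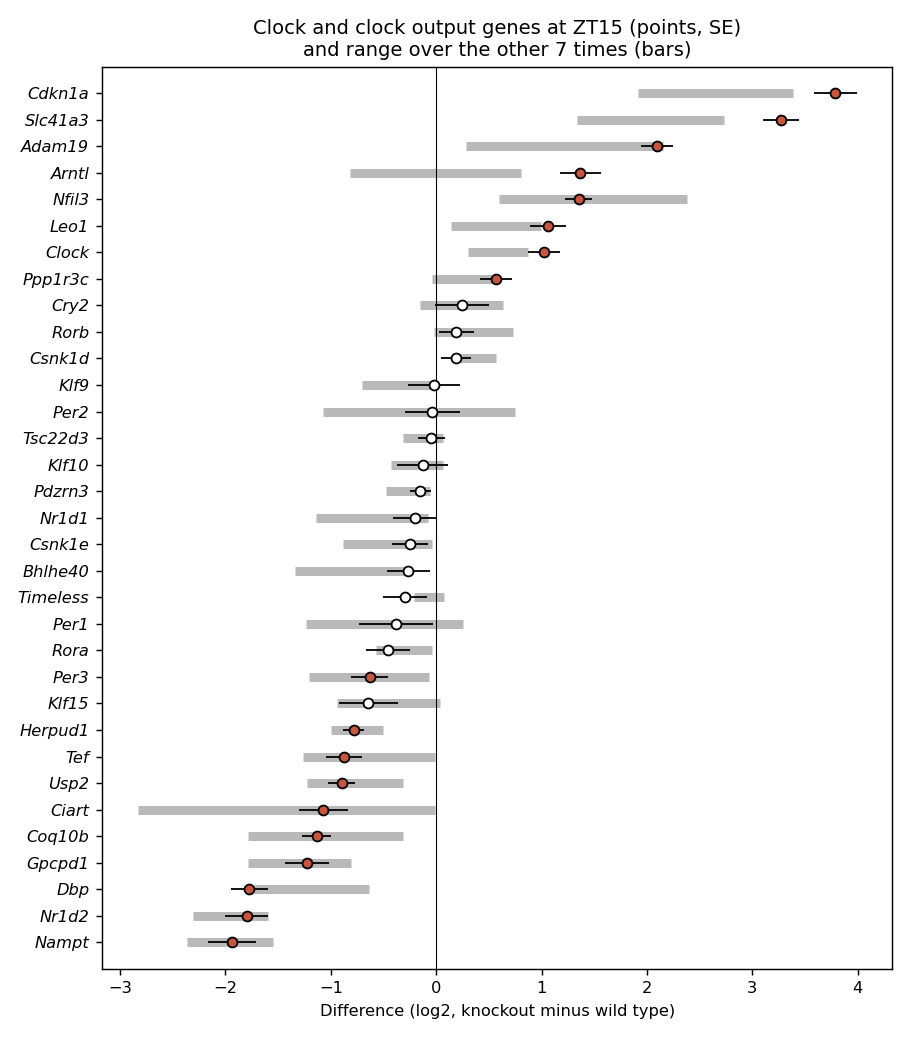
Knockout minus wild type difference (log2) at ZT15 of every tested core clock and clock output gene (points, with SE), filled where the adjusted p was under 0.05, over the range of the same difference at the other 7 times (grey bars). The points of Cdkn1a, Slc41a3, Arntl, Clock, Leo1, Ppp1r3c, Klf9 and Bhlhe40 lie to the right of all other times of the same gene. The last 4 do so by less than their SE, with 1.06 against 1.00 at ZT12 in Leo1 and 0.57 against 0.56 at ZT9 in Ppp1r3c.

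The 12 largest rises without overlap included, besides Cdkn1a, Slc41a3 and Adam19, genes linked to cardiac stress. Nppb, which encodes B-type natriuretic peptide, a secreted marker of wall stress, read 11.72, 10.75, 11.32 and 11.45 in wild type and 12.77, 12.64, 13.18 and 13.34 in knockout. All knockout arrays were higher, by 3.19-fold (difference 1.67 ± 0.27, SE, limma adjusted p = 9.3e-06). It was the largest Nppb difference of the 8 times, but against the mean of 0.79 at the others it did not pass (adjusted p = 0.75). Sprr1a, a cornified envelope protein gene induced in stressed cardiomyocytes, rose 3.56-fold, and Tnfrsf12a, the receptor gene for TWEAK, rose 2.94-fold. Apart from these stress-linked genes, the HSP70 family gene Hspa1l rose 3.33-fold (adjusted p = 2.2e-06), from readings of 6.10 to 7.54 to readings of 8.22 to 8.72.

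The other large rises had diverse roles. Slc17a7, which encodes a vesicular glutamate transporter, read 7.19, 6.01, 6.14 and 6.01 in wild type and 9.77, 9.61, 9.71 and 9.23 in knockout (9.48-fold, limma adjusted p = 4.3e-11). Fhit, which encodes a dinucleoside triphosphate hydrolase, was detected on 0 wild type arrays (4.86 to 5.06) and on all 4 knockout arrays (7.51, 7.55, 8.34 and 8.29). Its knockout level was at least 4.98-fold higher, and its difference of 2.95 equalled the mean of the other times (2.95). Nt5e, the ecto-nucleotidase CD73 that makes adenosine, rose 3.17-fold from 7.70 to 7.82 in wild type to 9.31 to 9.54 in knockout. Pfkp, a phosphofructokinase isoform, rose 3.14-fold, and Lrp11, of the LDL receptor-related family, rose 4.22-fold.

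The largest fall was that of Ces1d, a carboxylesterase gene whose product hydrolyses triglycerides. It read 12.40, 12.75, 12.82 and 12.53 in wild type and 8.47, 8.20, 8.03 and 7.45 in knockout. The groups lay more than 3 log2 units apart, a 24.1-fold fall (difference -4.59 ± 0.17, SE, limma adjusted p = 1.2e-28) that hardly varied through the day (-4.81 to -4.40 at the other times). Bdh1, the mitochondrial enzyme that oxidises the ketone body beta-hydroxybutyrate, read 9.58, 9.47, 9.34 and 9.79 in wild type and 6.11, 6.61, 7.11 and 7.05 in knockout. It fell 7.10-fold without overlap (difference -2.83 ± 0.37, SE, limma adjusted p = 7e-08). Ptgds, a prostaglandin D synthase gene, fell 4.84-fold, with knockout replicate 182 (8.37) above the other 3 knockout arrays (7.53 to 7.66). Ano10, of the anoctamin membrane proteins, fell 4.01-fold, and Mid1ip1, which promotes assembly of acetyl-CoA carboxylase, fell 3.11-fold. Lgals4, a galectin gene, fell 3.03-fold and Tbc1d10c, whose product carabin inhibits calcineurin and Ras, fell 3.01-fold. The RIKEN gene 2210407C18Rik was detected on 4 wild type and 0 knockout arrays and was at least 3.90-fold lower.

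Where lipid and ketone genes were called, most were lower. In triglyceride synthesis and lipolysis, 6 of 24 tested genes were lower and 1 higher, with a list median of -0.06. That is 29.2% called, against 6.15% of all genes (2.71% lower). Dgat2, which makes triglyceride from diacylglycerol, read 12.62, 12.62, 12.56 and 12.58 in wild type and 11.49, 11.45, 10.75 and 10.87 in knockout. Its wild type arrays were nearly equal, and it fell 2.74-fold (limma adjusted p = 7.6e-09). Acaca, which encodes an acetyl-CoA carboxylase, fell 1.60-fold and Cidea, a lipid droplet protein gene, rose 1.70-fold. Ketone body use had 2 of 4 tested genes lower, Bdh1 and Oxct1 (1.37-fold), the latter encoding the enzyme that commits ketone bodies to oxidation. In fatty acid uptake and oxidation 4 of 26 were lower and 0 higher (15.4% called, median -0.24), namely Ech1 (1.33-fold), Decr1 (1.42-fold), Eci1 (1.36-fold) and Acot1 (1.69-fold, other probe -0.28 with adjusted p = 0.8). Ech1, Decr1, Eci1, Acot1 and Oxct1 missed the threshold with median scaling, at adjusted p from 0.18 to 0.57.

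Carbohydrate genes went both ways. In glucose uptake and glycolysis, Pfkp (above) and Tpi1 (1.26-fold) were higher and Fbp2 (2.74-fold) and Hk2 (1.36-fold) lower, 4 of 21 tested genes. Fbp2, the muscle fructose bisphosphatase, read 10.01, 9.77, 10.03 and 9.62 in wild type and 8.12, 8.43, 8.34 and 8.71 in knockout, with no overlap. Both other Tpi1 probes missed the threshold, with differences of 0.04 and 0.01. In glycogen metabolism 2 of 14 were higher: Pygl, a glycogen phosphorylase gene (2.56-fold, other probe 0.72 with adjusted p = 0.22), and Ppp1r3c, whose product directs phosphatase to glycogen. The tricarboxylic acid cycle had 1 of 23 genes lower, Idh2 (1.46-fold, limma adjusted p = 0.037), a share of 4.35% that is under the 6.15% of all genes. Branched-chain amino acid catabolism had 2 of 18 lower, Dbt (1.91-fold, other probe -0.38 with adjusted p = 0.39) and Bckdhb (1.60-fold), both of the complex that decarboxylates branched-chain keto acids.

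Among signalling genes, insulin, PI3K and mTOR signalling had 4 of 20 lower and 1 higher (25% called, against 6.15% of all genes). Pik3r1, the regulatory subunit of PI3K, fell 1.54-fold (limma adjusted p = 0.0053), from 11.51 to 11.80 in wild type to 10.97 to 11.09 in knockout. Sesn1 (1.62-fold, other probe -0.62 with adjusted p = 0.36) and Igfbp5 (1.59-fold) were also lower, and Ddit4, which encodes the mTORC1 inhibitor REDD1, was 2.04-fold higher. Pik3r1, Sesn1 and Igfbp5 missed the threshold with median scaling. Of 18 genes known to respond to glucocorticoids, Cdkn1a and Ddit4 were higher and the metallothionein gene Mt1 was lower (1.52-fold), which is 16.7% called. Among 12 nuclear receptors and mitochondrial regulators only Esrrb was called (1.35-fold lower), which is 8.33% and near the share of all genes. Ppara gave -0.31 ± 0.20 (SE, limma adjusted p = 0.5).

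The hypertrophy and fetal program list had 5 of 19 genes higher (26.3%, against 3.44% of all genes) and 0 lower, Nppb among the 5. Its median difference was 0.35 at ZT15 and 0.02 in the mean of the other 7 times, beside -0.004 and -0.02 over all genes. Rcan1, a calcineurin target and regulator, read 10.20, 10.15, 10.09 and 9.93 in wild type and 11.55, 11.53, 11.82 and 11.57 in knockout. It rose 2.88-fold (limma adjusted p = 6.2e-09) with no overlap, and its other probe rose by 3.02 on the log2 scale. The matrix protein gene Ccn2 rose 2.18-fold and the uridine-cytidine kinase gene Uck2 rose 1.74-fold, while the fifth, Ankrd1, rose 1.61-fold (adjusted p = 0.011) and was added after its values were seen. Of this list 0 genes passed against the other times.

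Markers of the atrium stood somewhat higher in knockout at this time, with no call. All 9 tested atrial markers had a difference above 0 (median 0.28, and -0.03 in the other times), where 50.7% of all genes lay below 0. Markers of 1 tissue may shift together, so these are not 9 separate observations. Of the 9, 0 were called and 2 were detected on no ZT15 array. Their mean level ranged from 7.29 to 8.43 in wild type and from 7.99 to 9.43 in knockout. Nppa, the atrial natriuretic peptide gene, read 13.46, 11.53, 12.52 and 12.87 in wild type and 14.50, 13.56, 13.72 and 13.77 in knockout (adjusted p = 0.094). The sarcolipin gene Sln reached 12.25 on knockout replicate 177 and only 6.90 on wild type replicate 190, with the other 6 arrays between 8.92 and 10.06. Without both of these arrays 335 genes were called in place of 562, with fewer samples tested. The differences were then 1.56 in Nppb (adjusted p = 0.000563), 1.565 in Rcan1 (adjusted p = 4.59e-07) and 0.73 in Nppa (adjusted p = 0.642). The other named atrial markers no longer lay above 0. These arrays were chosen as the highest and lowest in atrial markers, so a fall of the atrial differences, Nppa among them, was fixed by that choice. Sln went from 1.14 to -0.27, Myl4 from 0.77 to -0.14 and Nr2f2 from 0.27 to -0.15. Of the 70 named calls 14 missed the threshold without this pair (adjusted p from 0.0627 to 0.223), Mt1 and Ppp1r3c and 12 that are named below as resting on single arrays. The part of atrial tissue in these differences was not tested.

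Contractile and channel genes were called in both directions. Among 18 sarcomere genes Tcap was lower and Csrp3, the muscle LIM protein gene, slightly higher (1.20-fold, other probes 0.19 and 0.28 with adjusted p = 0.4 and 0.09). Of 25 ion channel and calcium handling genes 4 were higher and 4 lower (32%, against 6.15% of all genes). Kcnv2, a silent potassium channel subunit gene, read 7.57, 8.14, 8.05 and 7.84 in wild type and 6.04, 6.71, 6.17 and 6.36 in knockout. It fell 2.99-fold (limma adjusted p = 9.4e-10) with no overlap. The pacemaker channel gene Hcn2 rose 2.39-fold and the calcium-binding protein gene Casq2 rose 1.42-fold, while Abcc9, a subunit of ATP-sensitive potassium channels, fell 1.53-fold, with -0.77 (adjusted p = 0.0086) on a further probe and -0.17 (adjusted p = 0.76) on the other. The rest of these calls, named after their values were seen, were the potassium channel subunit gene Kcne1 (2.83-fold higher), the connexin gene Gja1 (1.32-fold higher), the potassium channel partner gene Kcnip2 (2.02-fold lower) and the sodium channel subunit gene Scn4b (1.83-fold lower). Among 30 extracellular matrix genes 2 were higher, Ccn2 and Col4a2 (1.45-fold), which is 6.67% and near the share of all genes.

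Lists with 0 calls at ZT15 held 14 temperature-responsive, 15 unfolded protein response, 18 autophagy and degradation, 17 interferon response and 14 cell cycle genes. In lists this short 0 calls lie near the 6.15% of all genes and show no difference from it. Herpud1, a gene of protein quality control at the endoplasmic reticulum, is counted under clock output and not in the unfolded protein response list. Likewise Cdkn1a, the cell cycle inhibitor gene with the largest rise, is counted under clock output and glucocorticoid response and not in the cell cycle list. Among the temperature-responsive genes, Hspa1a, an inducible HSP70, spread from 6.22 to 8.25 over the knockout arrays and from 5.91 to 6.60 in wild type (difference 1.11 ± 0.81, SE, adjusted p = 0.56). Hsph1, a chaperone of the HSP110 family, did not overlap between the groups but missed the threshold (0.81 ± 0.27, SE, adjusted p = 0.066). The 14 tested cell cycle genes ranged from -0.21 to 0.42, and a further 9 listed genes, Mki67, Top2a, Ccna2, Ccnb1, Ccnb2, Cdk1 and Ccne1 among them, were too dim or not on the array and were not tested.

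**Figure D5:**
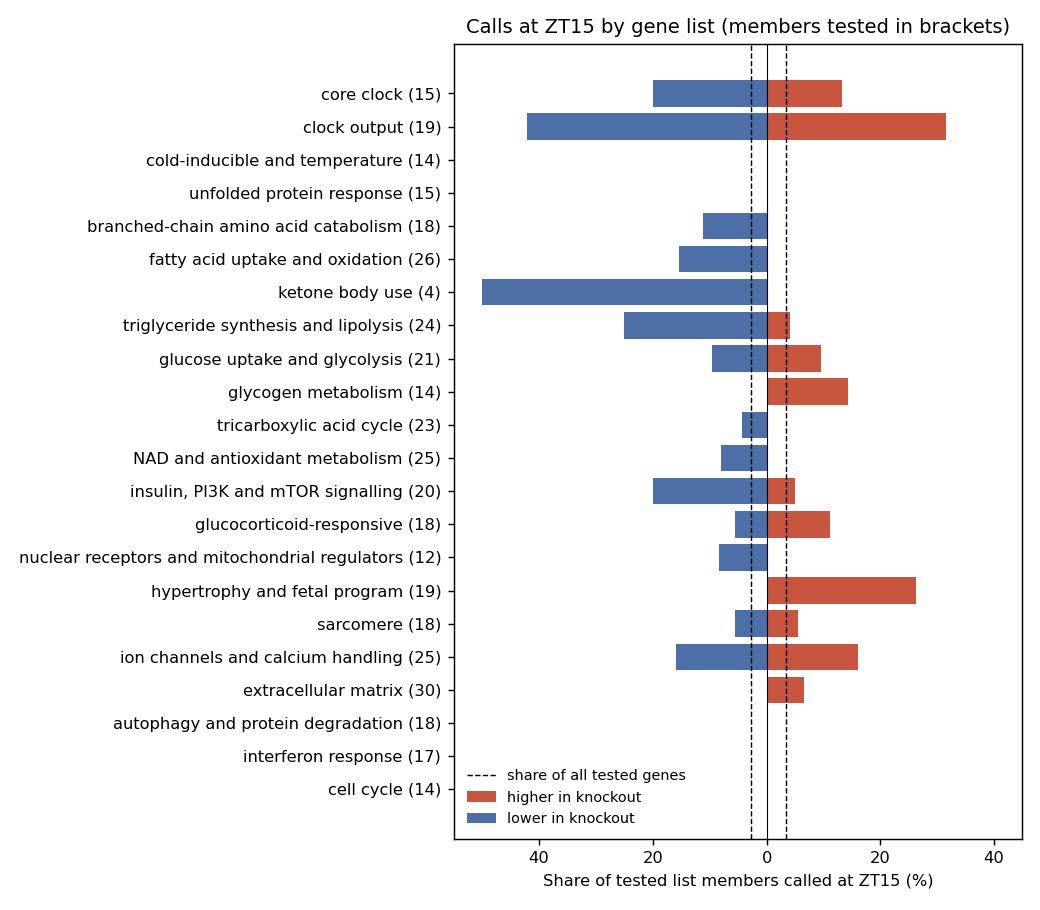
Share of the tested members of each gene list that was higher (right) or lower (left) in knockout at ZT15, with the number tested in brackets and the shares of all 9137 genes as dashed lines (3.44% and 2.71%). Clock output genes reach 73.7% in both directions together, and 5 of the 22 lists drawn, which leave out the cell type markers, have no call.

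Among markers of other cell types, 2 calls were made: C1qa, a complement gene of macrophages, and Abcc9, also a marker of pericytes. They make up 6.25% of the myeloid list and 8.33% of the smooth muscle and pericyte list, near the 6.15% of all genes. All 16 tested myeloid markers had a difference below 0 (median -0.33, and -0.16 in the other times), where 50.7% of all genes did. Their mean level ranged from 8.62 to 9.16 in wild type and from 8.43 to 8.64 in knockout. Markers of 1 cell type may shift together, so these are not 16 separate observations. Also below 0 were 10 of 12 endothelial and 10 of 12 smooth muscle and pericyte markers. So were 6 of 7 skeletal muscle, 3 of 5 red blood cell and 3 of 3 fat markers. Among fibroblast markers 9 of 11 lay above 0. C1qa read 8.25, 8.07, 7.48 and 7.77 in wild type and 6.81, 7.03, 7.10 and 7.39 in knockout, a 1.75-fold fall (limma adjusted p = 0.023) with groups that nearly met. It did not differ from the other times by the test (adjusted p = 0.86), and the call was lost on leaving out any 1 of 4 of the arrays. Tested markers of fibroblasts (11), endothelium (12), skeletal muscle (7), red blood cells (5) and fat (3) had 0 calls, and their part in the other results was not tested. In lists this short 0 calls show no difference from the 6.15% of all genes.

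Of the 70 named genes called at ZT15, 13 lost the call when 1 array was left out. Eci1 lost it for 7 of the 8 arrays, all but knockout replicate 182, with adjusted p from 0.0612 to 0.149. Acot1 (0.0634 to 0.158) and Idh2 (0.0526 to 0.124) lost it without knockout replicates 177, 181 or 182 or wild type replicates 180, 190 or 191. Decr1 (0.067 to 0.171) lost it without knockout replicates 181 or 182 or wild type replicates 190 or 191. Oxct1 (up to 0.109) lost it without knockout replicate 177 or wild type replicate 196, and Bckdhb (up to 0.0707) without knockout replicates 177 or 178 or wild type replicate 191. Among structural genes, Col4a2 (up to 0.175) lost it without any array but knockout replicate 177 or wild type replicate 196, and Csrp3 (up to 0.128) without any array but knockout replicate 178 or wild type replicate 180. C1qa (up to 0.102) lost it without knockout replicates 177 or 178 or wild type replicates 180 or 190, and Per3 (up to 0.0865) without knockout replicate 181 or wild type replicates 191 or 196. Dnajc17 (up to 0.0589) lost it without knockout replicate 177 or wild type replicate 180, Casq2 (0.0515) without knockout replicate 181, and Tpi1 (0.0625) without wild type replicate 196. With median scaling 18 of the 70 missed the threshold, at adjusted p from 0.0586 to 0.574, among them Per3, Hk2, Esrrb, Mt1, Abcc9, C1qa, Csrp3, Idh2, Bckdhb and Tpi1 besides those named as such above.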

How the data were processed

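Per the file headers, the authors deposited an average bead intensity for each probe and array, with a detection p-value against the negative controls of that array beside it. No label or header names the scanner software. Processed intensities that the authors deposited served as an alternative. The 64 scanner columns were background-corrected with normexp (offset 16, parameters from the detection p-values), quantile normalized and log2 transformed (R 4.3.3, limma 3.58.1). Probes detected at p under 0.01 on 4 or more arrays were kept (12101 of 25697). The probe with the highest mean was kept per gene, which left 9137 features. Of the probes, 23978 had 1 symbol in the platform annotation and 1719 had none, and RefSeq matched 23962. The offset makes folds of dim genes too small.

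A mean per group (16 groups, 64 arrays) was fitted with limma and empirical Bayes, with Benjamini-Hochberg adjustment over all features (threshold 0.05). The fit was tested on simulated data with independent noise and no daily rhythm, for the ZT15 difference and its comparison with the other times. The steps before the fit and the bound described next were not tested in this way. For a gene detected on no array of a group, the brighter group's mean is set against the lowest detected signal of the other group's arrays.

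Named genes were all tested core clock and clock output genes, the 12 largest non-overlapping rises and falls, the genes past the test against other times (at most 12 each way), and up to 4 members with the smallest p in each of 33 lists (654 entries, of which 66 are not on the array and 93 passed no detection filter). Members and lists were chosen with earlier results of these data known. Alternatives covered background, offset, scaling, filters, array weights, subsets of arrays and each left-out array.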

Additional observations from a re-analysis of the deposited data

Results flagged for a closer look

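In 314 groups of 4 arrays (157 named genes in both genotypes), 20 held an array far from the other 3, and chance gives this in about 1 in 20 groups. In wild type, replicate 180 stood apart for Csnk1e (9.60, others 10.07 to 10.15), Slc17a7 (7.19, others 6.01 to 6.14), Icam2 (9.49, others 9.40) and Tyrobp (5.67, others 6.71 to 6.81). Replicate 190 did so for Casq2 (11.74, others 11.93 to 11.94), and replicate 191 for Timp1 (5.28, others 6.35 to 6.53) and C1qb (9.11, others 9.60 to 9.68). Replicate 196 did so for Pfkp (7.93, others 7.38 to 7.42), Bckdha (11.54, others 11.76 to 11.77) and Isg15 (6.25, others 6.63 to 6.68). In knockout, replicate 177 stood apart for Per1 (7.62, others 8.32 to 8.41), Ciart (5.18, others 5.51 to 5.57) and Cd52 (6.89, others 7.49 to 7.56), and replicate 178 for Tcap (10.99, others 11.24 to 11.29). Replicate 181 did so for Calr (8.99, others 8.52 to 8.58) and Rcan1 (11.82, others 11.53 to 11.57). Replicate 182 did so for Hspa1l (8.22, others 8.64 to 8.72), Ptgds (8.37, others 7.53 to 7.66), Tnni3 (12.46, others 11.32 to 11.42) and Mfap5 (7.74, others 8.13 to 8.20).

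The knockout effect differed between ZT15 and the mean of the other 7 times in 8 genes: by 1.49 in Arntl, 1.21 in Slc41a3, 1.06 in Cdkn1a, 0.93 in Tnfaip3, 0.89 in Adam19, 0.86 in Cep41, -0.87 in Tcap and -0.85 in Dnajc17. Between ZT15 and ZT3 it differed in 4 genes: by 2.15 in Arntl, 1.87 in Cdkn1a, 1.81 in Slc41a3 and 1.04 in Adam19.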

How the results depend on the processing

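Of the 70 named genes called at ZT15, 48 kept the call under all 22 alternatives, 22 lost it under at least 1, and 0 reversed. Leaving out single arrays took the call from 13 of them. Of 24 called genes with further tested probes, 9 had a further probe that missed the threshold, 7 had none that passed, and 0 had one past it in the opposite direction. The ZT15 count of 562 moved to 311 with median scaling, to 1137 with array weights, and to 335 without the arrays highest and lowest in atrial markers, an alternative added after seeing the data. With any 1 of the 8 arrays left out it ranged from 412 to 555. Median scaling moved the median of all genes to 0.06. The count of 8 against the mean of the other times became 2 with median scaling, 28 with array weights, and 3 without the atrial pair of arrays. It became 5 without background correction, 5 with detection on at least 32 arrays, 5 with detection on at least 4 of the ZT15 arrays and 5 with no filter. It ranged from 2 (without wild type replicate 180) to 5 over the left-out arrays, where 3 arrays stand against 4. Only Arntl and Slc41a3 kept this call under all 21 alternatives, with an excess of 0.58 to 1.64 and 0.89 to 1.26. The count of 4 against ZT3 became 8 with the 32 arrays of ZT 3, 9, 15 and 21, and 9 with array weights, and ranged from 3 to 4 over the left-out arrays. The cause of these moves was not tested. Without background correction the Arntl difference shrank to 0.45, and signal near background limits Tnfaip3, Cep41 and Dnajc17 in the same way. No paired analysis was possible because the sample numbers of the 2 genotypes share no value.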

Other observations

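Among genes called at ZT15 and at no other single time, those with the smallest p against the other times after Tnfaip3 were Asb3 and Wdr47, chosen after their values were seen. Asb3, of the ankyrin repeat and SOCS box family, was higher in knockout by 0.61 ± 0.13 (SE, n = 4 per group, limma adjusted p = 0.0013) and near 0 in the mean of the other times (0.02). Its excess at ZT15 did not pass (adjusted p = 0.11). Wdr47, a WD repeat gene, was higher by 0.92 ± 0.22 (SE, limma adjusted p = 0.0042) but was detected on 0 wild type and 3 knockout arrays, and its excess did not pass either (adjusted p = 0.33). Kcmf1, the gene of a ubiquitin ligase, was lower by -0.51 ± 0.12 (SE, limma adjusted p = 0.0026) on arrays that all detected it, against -0.10 in the mean of the other times (adjusted p of the difference 0.72).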
